A study of Sus scrofa with 120 samples.

Results

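Interferon-stimulated genes are the genes a cell switches on when it senses an interferon, and 45 of them, listed by symbol, were followed here through pig cartilage constructs that were stimulated mechanically, chemically or with a cytokine. A member was taken wherever its symbol had a row in the deposited gene counts: 43 of the 45 had a row among 31907 gene identifiers, and XAF1 and GBP1 were not analysed here. By role, the 43 are 4 transcription factors, 4 sensors of RNA or DNA, 19 antiviral effectors, 10 genes of the ISG15 and ubiquitin system, 3 genes of antigen processing, 1 guanylate-binding protein and 2 chemokines.

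The data are RNA-seq counts of 120 libraries from primary pig chondrocytes of femoral cartilage, in 30 groups of 4 libraries. The labels do not say whether the 4 came from separate animals, so the p-values measure the spread between these libraries, which may be technical. All cells, controls included, were cast in 2% agarose. In the experiment on TRPV4, a calcium-permeable ion channel opened by deformation and swelling, 48 libraries came from constructs labelled WT/NT (wild type, non-transfected) and harvested 3 h or 9 h after the onset of stimulation: DMSO vehicle left free swelling, the TRPV4 agonist GSK101 at 1 nM, the TRPV4 antagonist GSK205 at 10 uM (the sample protocols write mM), cyclic loading at 10% peak-to-peak deformation and 1 Hz for 3 h, loading with GSK205, and interleukin-1 (IL-1) at 1 ng/mL. In the experiment on PIEZO1, a channel opened by membrane tension, 72 libraries came from cells that were non-transfected (NT), transfected with a non-targeting siRNA (siNTC) or transfected with siRNAs against PIEZO1 (siPIEZO1). Each was then left in DMSO vehicle, compressed to 80% deformation at 1.9% per min, or given the PIEZO1 agonist Yoda1 at 5 uM (mM in the sample protocols), and harvested at 3 h or 9 h. The 2 experiments used different library kits and were fitted apart, so levels are not compared between them. Levels are CPM, counts scaled to a common library total, which are not corrected for gene length, so a level is compared only with the level of the same gene.

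Type I interferons bind IFNAR1 and IFNAR2, whose kinases JAK1 and TYK2 phosphorylate STAT proteins; STAT2 and IRF9 are parts of the complex that binds the interferon-stimulated response element in front of most of the genes listed here. Interferon gamma acts through its own receptor and induces IRF1, which NF-kB also induces. Many of the same genes are reached without interferon when RIG-I (DDX58), MDA5 (IFIH1) or other sensors meet foreign or misplaced nucleic acid, short interfering RNA among the known ligands, and activate IRF3 and IRF7.

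Because the transfected RNA is what separates the groups compared first, the siRNAs against PIEZO1 are printed, 5′ to 3′ in lower case, as the labels give them.
siPIEZO1a: cagcgagaucucgcacuccauc
siPIEZO1b: uacgaccugcugcagcuccug
siPIEZO1c: acccgcuggccaugcaguucuu
They are 22, 21 and 22 bases long with a GC share of 59.1%, 61.9% and 59.1%, and were given together at about 222 nM, 278 nM and 278 nM. The labels do not give the sequence or dose of siNTC, so siPIEZO1 and siNTC differ in target, in sequence and possibly in dose, and these cannot be told apart.

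Total counts were 20651530 to 80223797 per library in the TRPV4 experiment and 36807992 to 66240251 in the PIEZO1 experiment. PIEZO1 itself was not called lower in siPIEZO1 than in siNTC in vehicle: its log2 fold change was -0.24 ± 0.19 (SE) at 3 h (adjusted p = 0.576, edgeR quasi-likelihood fit, Benjamini-Hochberg over all genes) and -0.66 ± 0.23 at 9 h (adjusted p = 0.0619). With Yoda1 at 3 h it was lower, by -0.72 ± 0.19 (adjusted p = 0.0199). Libraries are therefore called by their label, "siPIEZO1". Library 1 of siPIEZO1 in vehicle at 3 h stood apart from the other 3 in several members, and counts without it are given. Chondrocyte markers were present in every group. Of the 10 leukocyte markers LYZ was at 0 in all 120 libraries and others were detected, with a summed level of 34.5 to 42.4 CPM in DMSO and 38.4 to 52.4 CPM in NT vehicle at 9 h. Where this sum moved with a group it is given beside the result.

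In vehicle constructs, interferon-stimulated genes were higher in siPIEZO1 than in siNTC at both times, and no member was lower. At 3 h 20 of 43 members tested were called higher (adjusted p under 0.05 over all genes) and 0 lower, against 5.07% of all 18330 genes called in either direction. At 9 h 27 of 43 were higher and 0 lower, against 10.8% of 18611 genes. The median log2 fold change of the 43 members was 0.60 at 3 h and 1.05 at 9 h, while that of all genes was 0.04 and 0.02. In 21 members at 3 h and 29 at 9 h, all 4 siPIEZO1 libraries lay above all 4 siNTC libraries, and in 0 members did they all lie below. Over all genes tested the siPIEZO1 libraries lay above in 4.83% at 3 h and 6.64% at 9 h and below in 4.94% and 7.40%.

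CCL5, the chemokine RANTES, which draws T cells and monocytes, differed most at both times. At 3 h its level was 24.7, 27.5, 21.5 and 24.5 CPM in the 4 NT libraries, 23.8, 25.3, 29.3 and 18.5 CPM in siNTC, and 546, 297, 315 and 315 CPM in siPIEZO1. NT and siNTC overlapped and every siPIEZO1 library lay far above them, with library 1 the highest. Relative to siNTC its log2 fold change in siPIEZO1 was 3.93 ± 0.19, a 15.2-fold difference (edgeR adjusted p = 8.42e-18). At 9 h siPIEZO1 stood at 321, 415, 327 and 523 CPM, against 29.5, 40.3, 41.7 and 35.7 CPM in siNTC, a log2 fold change of 3.43 ± 0.15 (edgeR adjusted p = 2.49e-19). The other chemokine of the list, CXCL10, was close to the limit of detection, at 0 to 0.562 CPM in siNTC and 0 to 1.89 CPM in siPIEZO1 at 3 h, and was not called at either time (edgeR adjusted p = 0.9 and 0.269).

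Among the antiviral effectors, 10 of 19 rose at 3 h and 15 of 19 at 9 h. RSAD2 (viperin), a radical-SAM enzyme that makes a chain-terminating nucleotide, was at 26.3, 26.3, 17.7 and 18.2 CPM in siNTC and at 91.1, 121, 118 and 118 CPM in siPIEZO1 at 3 h. At 9 h it was at 13.0, 17.2, 7.57 and 9.88 CPM against 96.4, 123, 125 and 123 CPM. The groups did not overlap, and library 1 was the lowest of the siPIEZO1 libraries at both times. The log2 fold change was 2.34 ± 0.19 and 3.30 ± 0.18 (edgeR adjusted p = 3.97e-11 and 8.31e-16). OASL, which binds RIG-I and aids its signalling, lay low in siNTC, at 0.349, 0.806, 0.136 and 0.253 CPM at 3 h, and at 5.90, 6.58, 3.83 and 3.35 CPM in siPIEZO1. Its log2 fold change was 3.68 ± 0.44 at 3 h and 3.02 ± 0.61 at 9 h. IFIT2, a protein that blocks translation of viral RNA, went from 3.67, 2.94, 6.37 and 4.61 CPM to 17.0, 25.8, 23.7 and 19.8 CPM at 3 h. IFIT1, which binds RNA lacking the host cap, stood at 64.0, 53.8, 57.5 and 56.2 CPM in siNTC and 201, 182, 148 and 140 CPM in siPIEZO1. In both IFIT genes the groups were clear of each other, and the log2 fold changes at 3 h and 9 h were 2.29 ± 0.27 and 2.55 ± 0.26 for IFIT2 and 1.54 ± 0.17 and 2.22 ± 0.23 for IFIT1. The gene model of IFIT1 also holds IFIT3 in the RefSeq annotation, so the 2 cannot be told apart in these counts.

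IFI6, a mitochondrial and ER membrane protein, showed the spread that library 1 brings at 3 h. The siNTC libraries were at 339, 362, 341 and 301 CPM and the siPIEZO1 libraries at 306, 782, 944 and 914 CPM, so library 1 lay within the siNTC range. At 9 h the siPIEZO1 libraries stood at 841, 839, 1027 and 857 CPM, all above 305, 343, 266 and 272 CPM in siNTC. Its log2 fold change was 1.13 ± 0.17 and 1.59 ± 0.09. Without library 1 of siPIEZO1 the number of members called higher at 3 h was 23, and in a fit of the siPIEZO1 and siNTC vehicle libraries alone it was 12, with 0 lower in both.

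The difference in MX1 grew between 3 h and 9 h. MX1, a dynamin-like GTPase that traps viral nucleocapsids, was at 206, 204, 185 and 213 CPM in siNTC and 210, 237, 251 and 240 CPM in siPIEZO1 at 3 h, and the groups overlapped (log2 fold change 0.21 ± 0.10, edgeR adjusted p = 0.222). At 9 h it was at 37.4, 45.4, 36.2 and 31.5 CPM against 78.7, 86.4, 88.6 and 98.6 CPM, a log2 fold change of 1.23 ± 0.15 (edgeR adjusted p = 3.46e-07). MX1 was the 1 member of 43 called for a change with time in the difference between siPIEZO1 and siNTC (log2 1.02 ± 0.18, edgeR adjusted p = 0.00354). Of the 20202 genes tested in the fit of both times, 0.0149% were called. OAS1, an oligoadenylate synthetase that senses double-stranded RNA, rose by 0.88 ± 0.10 at 3 h and 1.62 ± 0.24 at 9 h. DHX58 (LGP2), a helicase that tunes RIG-I and MDA5 signalling, rose by 0.83 ± 0.17 and 1.86 ± 0.34.

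Genes of the ISG15 system and of antigen processing were among those higher. ISG15, a ubiquitin-like protein that is coupled to other proteins, was at 899, 955, 929 and 918 CPM in siNTC at 3 h and at 2149, 1328, 1370 and 1348 CPM in siPIEZO1, with library 1 far above the rest. At 9 h it was at 309, 384, 332 and 314 CPM against 728, 919, 776 and 1050 CPM. The groups did not overlap at either time, and the log2 fold change was 0.74 ± 0.12 and 1.38 ± 0.13. Of the 10 genes of this system, 2 rose at 3 h (ISG15 and USP18, the protease that removes ISG15) and 6 at 9 h, HERC5, the ligase for ISG15, by 1.75 ± 0.39. All 3 antigen-processing genes rose at both times: the immunoproteasome subunits PSMB8 by 0.85 ± 0.21 and 1.24 ± 0.23 and PSMB9 by 1.25 ± 0.25 and 1.47 ± 0.34, and the peptide transporter TAP1 by 0.67 ± 0.13 and 1.05 ± 0.18. Of the 20 calls at 3 h 11 held under every alternative and with every library left out in turn, PSMB9 among them. Those of IRF1, IRF7, ZBP1, MX2, BST2, IFI6, IFI35, PSMB8 and TAP1 were lost in at least 1 of these. At 9 h 21 of the 27 held, and those of IRF7, CMPK2, IFIT5, SAMD9, TRIM21 and PARP9 did not. The 3 antigen-processing genes lie side by side on chromosome 7 of Sscrofa11.1 (RefSeq), PSMB8 at chr7:25058456-25061666, TAP1 at chr7:25062772-25071989 and PSMB9 at chr7:25072133-25077508.

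Of the 4 transcription factors, 2 were called at 3 h and 1 at 9 h. STAT2 was at 17.6, 19.5, 18.3 and 21.7 CPM in siNTC and 13.4, 18.7, 18.6 and 19.5 CPM in siPIEZO1 at 3 h, overlapping groups with a log2 fold change of -0.13 ± 0.12 (edgeR adjusted p = 0.636), and was not called at 9 h either (-0.10 ± 0.11). IRF7, the factor that amplifies interferon production, stood at 4.15, 7.89, 9.94 and 8.11 CPM in siNTC and 9.24, 14.2, 17.7 and 20.4 CPM in siPIEZO1, and was called higher at both times (1.03 ± 0.27 and 1.01 ± 0.31, edgeR adjusted p = 0.016 and 0.0298). IRF1 was called at 3 h only, by 0.68 ± 0.19 (edgeR adjusted p = 0.0288), and at 9 h gave 0.43 ± 0.18 (edgeR adjusted p = 0.121); whether the 2 times differ was not called. IRF9 lay at 0.041 to 1.38 CPM in these siNTC and siPIEZO1 libraries and was not called.

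**Figure D1:**
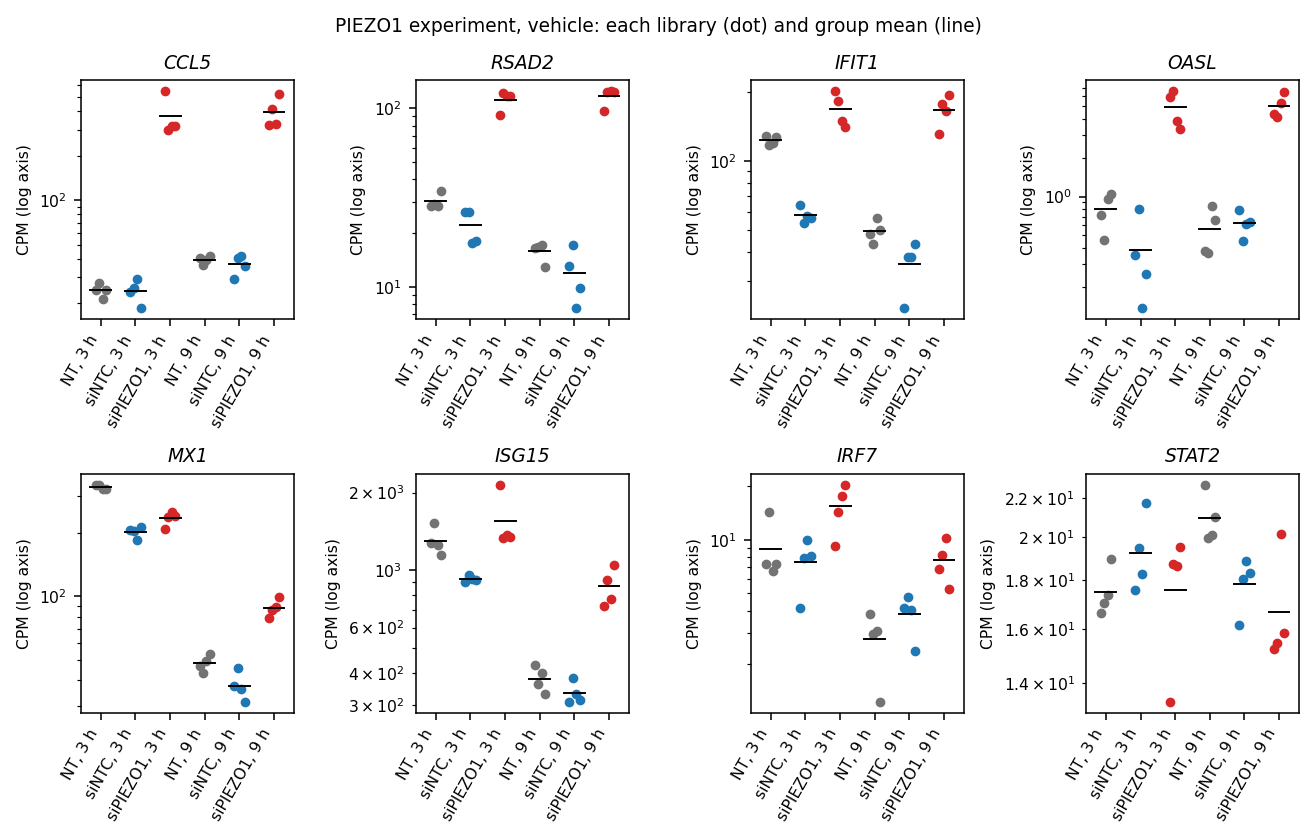
Level (CPM, log axis) of 8 members in vehicle constructs of the PIEZO1 experiment, by transfection and time; dots are the 4 libraries of a group and the line is their mean. CCL5, RSAD2, IFIT1 and OASL are higher in every siPIEZO1 library than in every siNTC library at 3 h and 9 h, MX1 is clear of siNTC at 9 h, and STAT2 overlaps.

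Cell type markers moved with the siRNA groups too. The summed level of 5 fibroblast markers was 1300 to 1410 CPM in NT, 726 to 792 CPM in siNTC and 222 to 411 CPM in siPIEZO1 at 3 h, and 1892 to 2122, 1107 to 1576 and 497 to 599 CPM at 9 h. The summed level of 9 chondrocyte markers was 33844 to 37511 CPM in NT, 27690 to 28596 CPM in siNTC and 15482 to 21965 CPM in siPIEZO1 at 3 h, and 29547 to 39051, 25265 to 37348 and 19283 to 23863 CPM at 9 h. The summed level of 10 leukocyte markers was 36.8 to 60.7 CPM in siNTC and 48.9 to 72.5 CPM in siPIEZO1 at 3 h, and 38.8 to 48.7 CPM against 61.4 to 89.5 CPM at 9 h, where CD14 was called higher (edgeR adjusted p = 0.015). Fewer cells of a type and less RNA per cell cannot be told apart in bulk libraries, and the part of these shifts in the result was not tested.

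The difference between siPIEZO1 and siNTC recurred in compressed and Yoda1-treated constructs, which are separate libraries. At 3 h 9 of 43 members were higher and 0 lower in compression (6.22% of all genes called) and 9 higher and 0 lower in Yoda1 (5.72%). At 9 h 26 were higher and 0 lower in compression (5.86%) and 25 higher and 0 lower in Yoda1 (7.45%). The members called in vehicle, compression and Yoda1 alike were 6 at 3 h, namely CCL5, IFI6, IFIT1, IFIT2, OASL and RSAD2, while 0.529% of all genes were higher in all 3. At 9 h they were 19: those 6 and BST2, DHX58, HERC5, IFI44, IFIT5, ISG15, MX1, OAS1, PSMB8, PSMB9, SAMD9, TAP1 and USP18, while 1.16% of all genes were higher in all 3. The members called in none of the 3 stimuli were 21 at 3 h and 12 at 9 h (87.5% and 83.6% of all genes), the latter ADAR, CXCL10, DDX58, DTX3L, EIF2AK2, GBP2, IFI35, IRF9, ISG20, STAT2, TRIM26 and ZBP1.

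Pooling the stimuli, CCL5 ranged from 18.5 to 34.2 CPM over the 12 siNTC libraries at 3 h and from 262 to 546 CPM (median 303) over the 12 siPIEZO1 libraries. RSAD2 ranged from 17.7 to 43.2 CPM and from 91.1 to 138 CPM (median 115). Every siPIEZO1 library lay above every siNTC library in 5 members at 3 h (RSAD2, IFIT1, IFIT2, OASL and CCL5; 0.387% of all genes) and in 12 at 9 h (0.462% of all genes), where DHX58, CMPK2, MX1, OAS1, IFI6, ISG15 and PSMB8 joined them. MX1 at 9 h, for example, spanned 31.5 to 57.6 CPM over siNTC and 69.7 to 132 CPM over siPIEZO1, while the 12 NT libraries spanned 43.3 to 73.3 CPM and reached into the siPIEZO1 range.

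**Figure D2:**
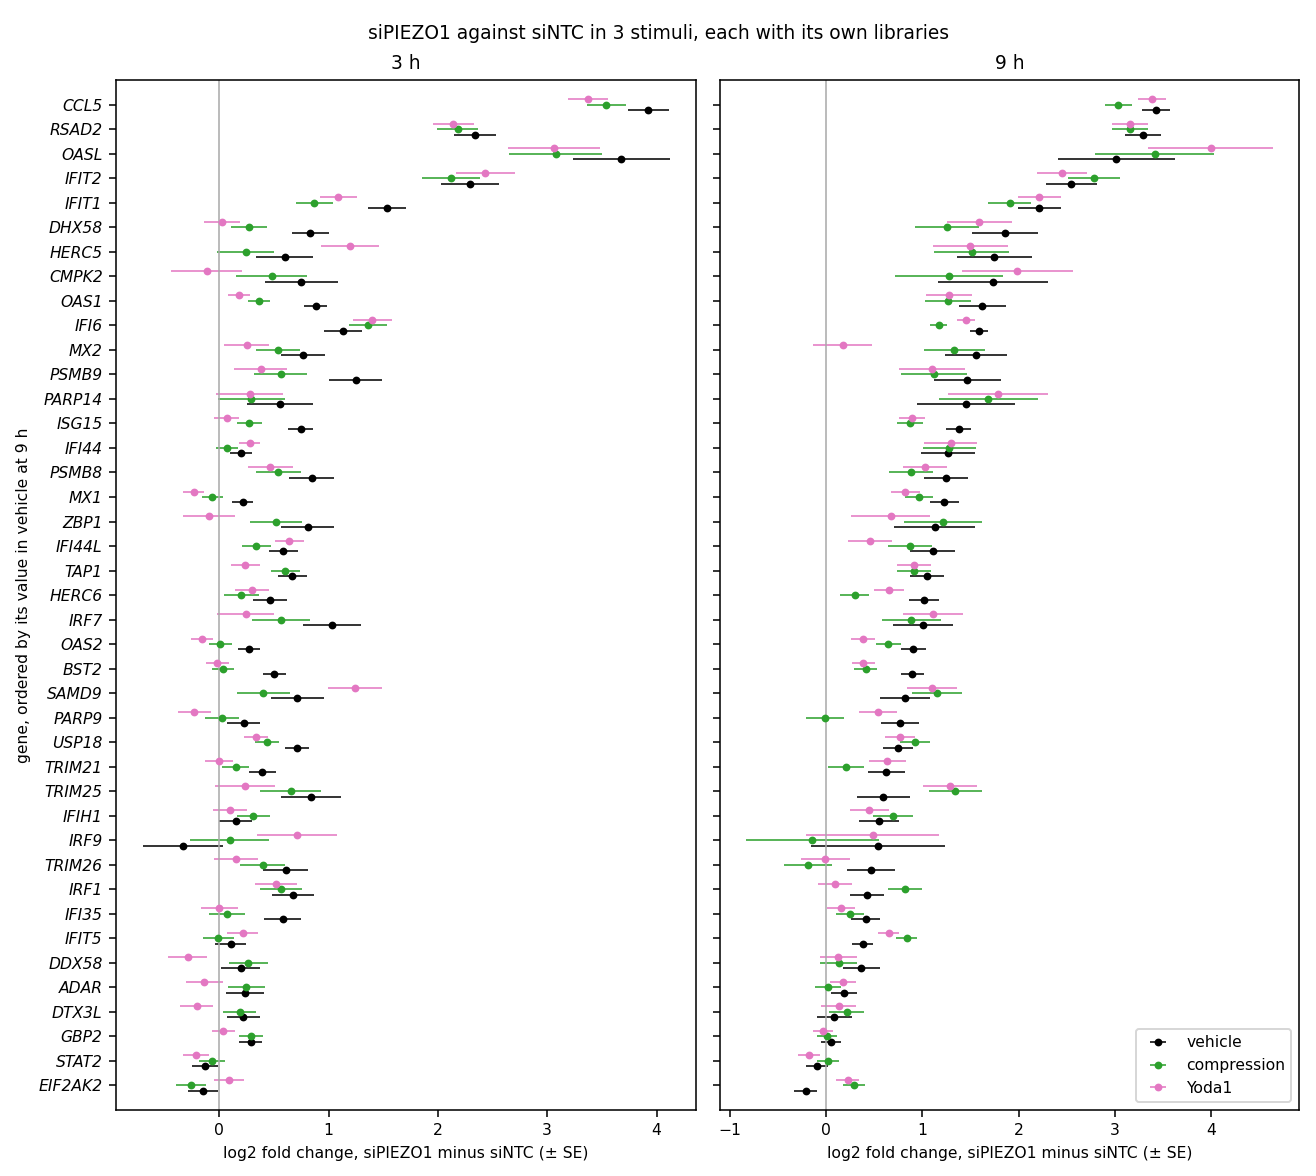
Log2 fold change of siPIEZO1 against siNTC (± SE) for 41 members in vehicle, compression and Yoda1, at 3 h (left) and 9 h (right). CXCL10 and ISG20, which had few counts, are left out. CCL5, RSAD2, OASL and IFIT2 lead in all 3 stimuli, and in vehicle the median over all 43 members is 0.60 at 3 h and 1.05 at 9 h.

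In the comparison of siNTC with NT, which shares its 4 siNTC libraries at each time with the comparison of siPIEZO1 with siNTC, members were lower at 3 h. Of 43 members, 20 were lower in siNTC than in NT in vehicle and 0 higher, against 7.53% of all genes called, and in 22 members all siNTC libraries lay below all NT libraries, as they did in 6.95% of all genes. The median log2 fold change over the members was -0.47, against 0.00 over all genes. The antiviral effectors made up 11 of the 20. IFIT1 was at 129, 117, 119 and 127 CPM in NT and at 64.0, 53.8, 57.5 and 56.2 CPM in siNTC, groups that did not overlap, with a log2 fold change of -1.09 ± 0.17 (edgeR adjusted p = 1.91e-05). IFI44L, a feedback inhibitor of the interferon response, was at 34.2, 35.7, 31.7 and 27.5 CPM against 17.5, 15.6, 14.4 and 15.4 CPM (-1.04 ± 0.13). OAS1 was at 123, 121, 114 and 109 CPM against 66.6, 65.1, 60.1 and 68.9 CPM (-0.84 ± 0.10). These 3 genes and MX1 (-0.71 ± 0.10), OAS2 (-0.75 ± 0.10), BST2 (tetherin, which holds budding virus at the membrane, -0.68 ± 0.10) and DTX3L (a ubiquitin ligase, -0.81 ± 0.15) were all lower. CCL5 was not among them (-0.02 ± 0.17, edgeR adjusted p = 0.974), nor were STAT2 (0.14 ± 0.12), IRF1 (0.07 ± 0.19), IRF7 (-0.24 ± 0.27), IRF9 (0.36 ± 0.37) and CXCL10 (1.48 ± 1.59).

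At 9 h 5 members were lower in siNTC than in NT and 0 higher, against 5.30% of all genes. They were IFI44L (-0.80 ± 0.23), IFI6 (-0.63 ± 0.09), OAS2 (-0.60 ± 0.13), BST2 (-0.55 ± 0.12) and HERC6 (-0.54 ± 0.16). The count was 3 without library 4 of siNTC. In the test of whether the difference between siNTC and NT changed between the times, 0 members were called (edgeR; 10 at an unadjusted p under 0.05, 0 with DESeq2), against 0.119% of all genes, so the smaller count at 9 h is not shown to be a different response. In compressed constructs siNTC lay below NT in 16 members at 3 h and 3 at 9 h, with 0 higher (7.92% and 7.23% of all genes). In Yoda1 it lay below in 13 at 3 h and 3 at 9 h, with 0 higher (11.1% and 5.47%). The 13 became 19 without library 1 and 8 without library 2 of siNTC with Yoda1, and the 3 became 1 without library 1 of siNTC with Yoda1 at 9 h.

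Set against non-transfected cells, siPIEZO1 gave a mixed list at 3 h: 9 members higher and 6 lower (16.8% of all genes called). CCL5 (3.91 ± 0.19), OASL (2.62 ± 0.41), IFIT2 (1.99 ± 0.26) and RSAD2 (1.89 ± 0.19) were higher, and DTX3L (-0.59 ± 0.15), MX1 (-0.50 ± 0.10), OAS2 (-0.48 ± 0.10), IFI44L, PARP9 and IFI44 were lower. At 9 h 23 were higher and 1 lower (23.5% of all genes), CCL5 by 3.33 ± 0.15 and RSAD2 by 2.89 ± 0.18, the lower being STAT2 (-0.33 ± 0.11). This comparison shares its siPIEZO1 libraries with the comparison to siNTC and its NT libraries with that of siNTC to NT.

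**Figure D3:**
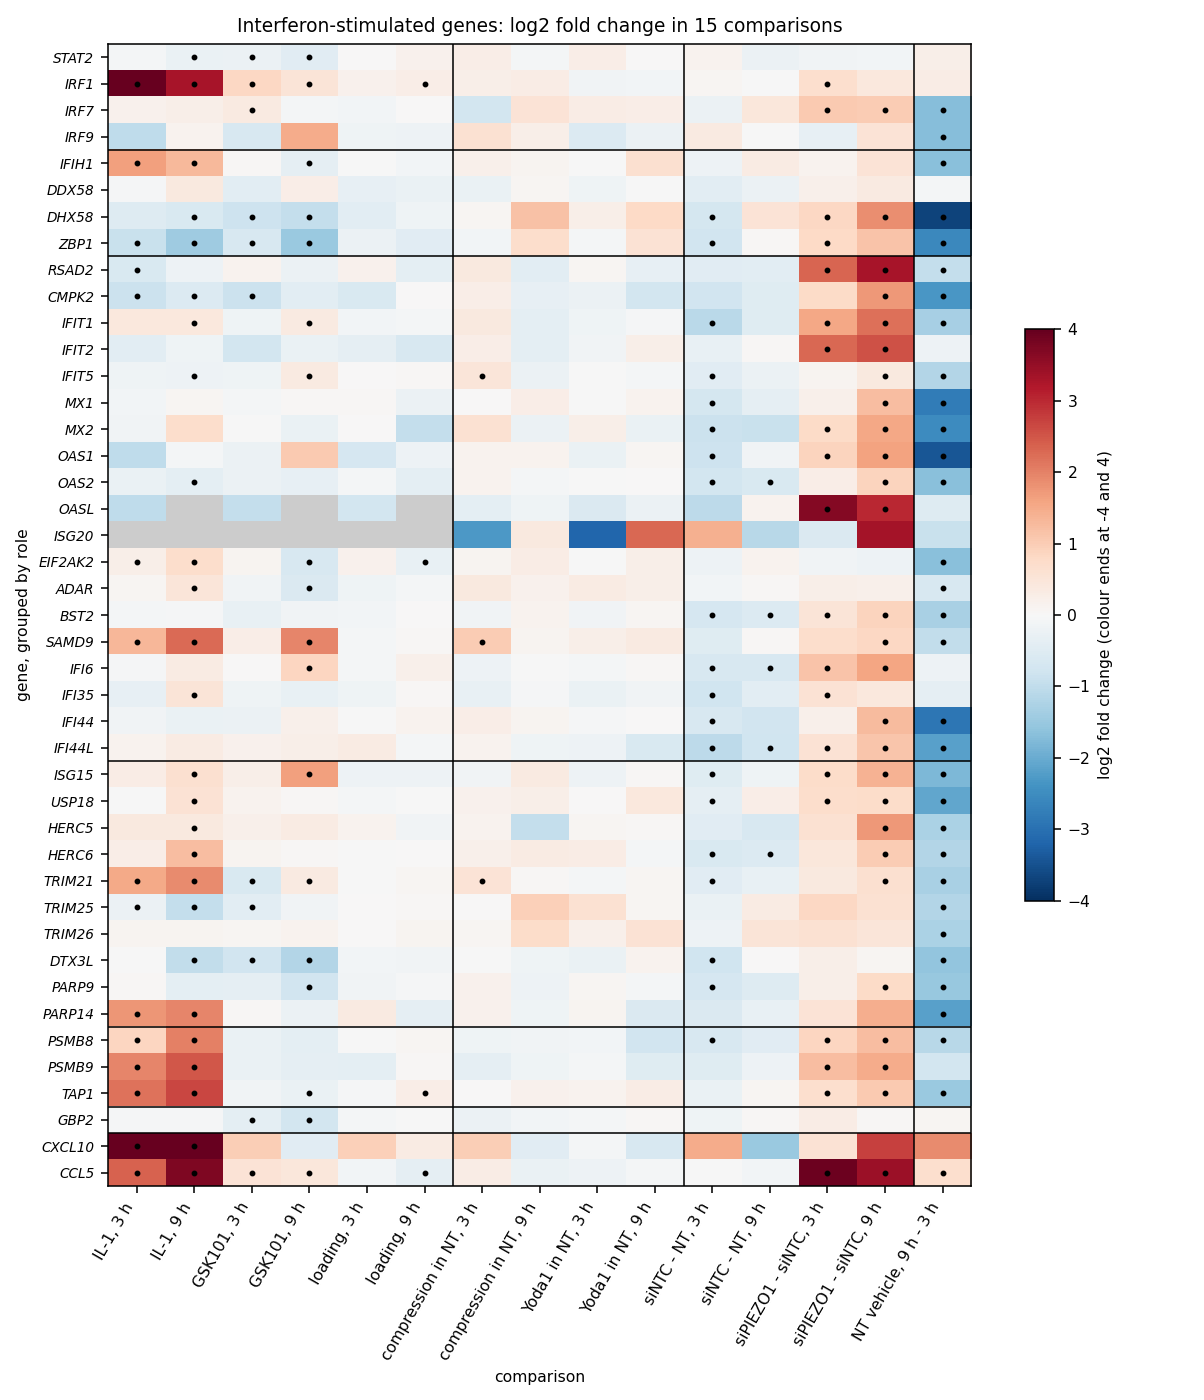
Log2 fold change of the 43 members (rows, by role) in 15 comparisons (columns); dots mark adjusted p under 0.05, grey cells were not tested, and colour ends at -4 and 4. Members are mostly lower in siNTC than in NT at 3 h, higher in siPIEZO1 than in siNTC, and lower at 9 h than at 3 h in NT, and IL-1 raises IRF1, CXCL10, CCL5 and the antigen-processing genes, among others.

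Most members fell with time in the PIEZO1 experiment. In NT vehicle 31 of 43 members were lower at 9 h than at 3 h and 1 was higher (16.1% of all genes called), with a median log2 fold change of -1.30, against -0.01 over all genes. DHX58 fell from 28.6, 33.4, 38.1 and 40.5 CPM to 2.89, 2.15, 3.18 and 2.77 CPM (-3.69 ± 0.30), and OAS1 from 123, 121, 114 and 109 CPM to 11.5, 11.6, 11.4 and 9.86 CPM (-3.41 ± 0.20). MX1 fell from 339, 338, 323 and 322 CPM to 46.7, 43.3, 49.2 and 52.9 CPM (-2.80 ± 0.14). The groups did not overlap in these 3 genes, and the fitted levels at 9 h were lower by 92.2%, 90.6% and 85.6%. All 10 genes of the ISG15 and ubiquitin system fell, ISG15 by -1.78 ± 0.13, as did 14 of 19 antiviral effectors. The member that rose was CCL5 (0.67 ± 0.16, edgeR adjusted p = 0.000983). STAT2 (0.25 ± 0.12), IRF1 (0.29 ± 0.19), IFI6 (-0.22 ± 0.14) and CXCL10 were not called. The transcription factors IRF7 and IRF9 were among the lower members, and the call of IRF9 was lost under some alternatives.

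The fall was also seen after transfection. In siNTC vehicle 28 members were lower at 9 h and 1, CCL5, higher (10.7% of all genes); in siPIEZO1 vehicle 21 were lower and 0 higher (6.99%). The median over the members was -1.08 in siNTC and -0.70 in siPIEZO1. DHX58 fell by -2.44 ± 0.28 in siNTC and -1.40 ± 0.27 in siPIEZO1, while RSAD2 fell by -0.88 ± 0.19 in siNTC and stood at 0.08 ± 0.18 in siPIEZO1 (edgeR adjusted p = 0.898). Only MX1 passed the test of that difference, as given above. In that test 17 of 43 members had an unadjusted p under 0.05 (edgeR), and the member median was 0.40, against 0.00 over all genes. The DMSO constructs of the TRPV4 experiment showed 3 members higher and 2 lower at 9 h (22.2% of all genes called). IFI6 (-0.63) and DTX3L (0.48) led them, and the count was 3 without library 1 of DMSO at 3 h. The 2 sets of controls come from different kits and their difference was not tested.

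**Figure D4:**
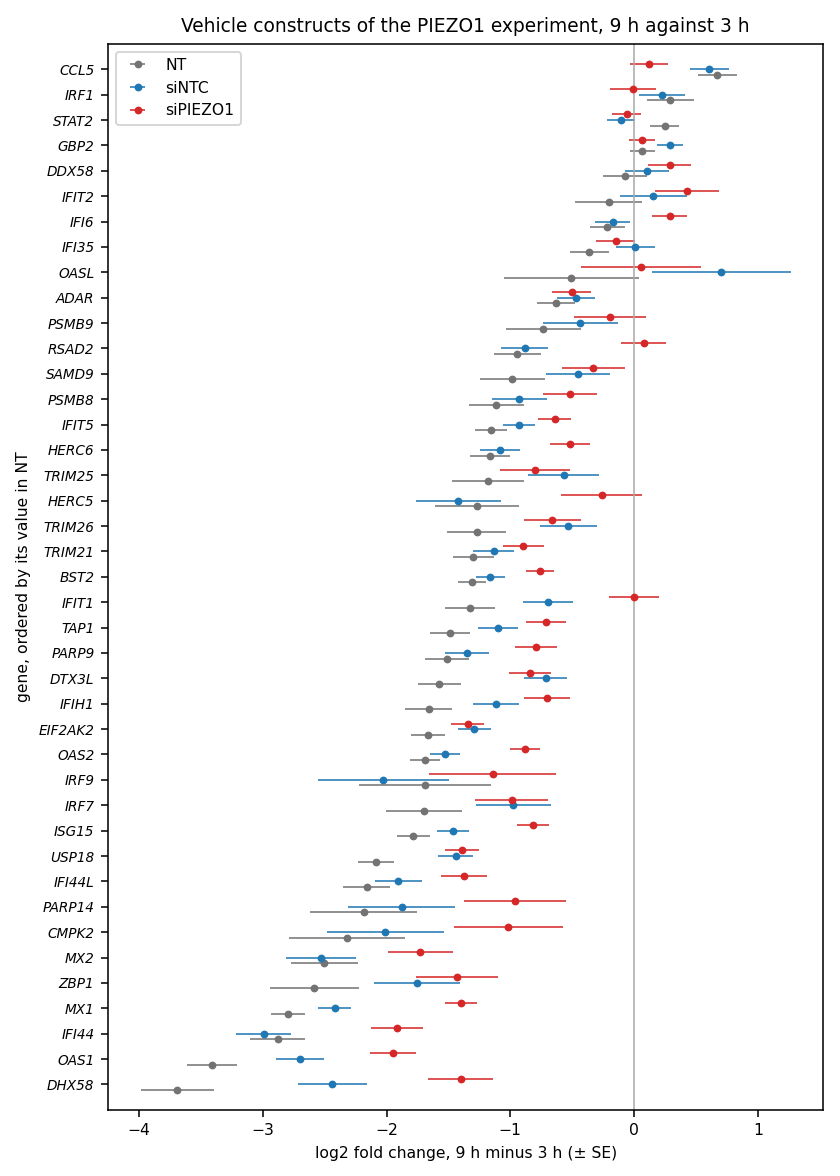
Log2 fold change at 9 h against 3 h (± SE) of 41 members in vehicle constructs that were NT, siNTC or siPIEZO1, ordered by NT; CXCL10 and ISG20 are left out. Most points lie below 0, DHX58, OAS1, IFI44 and MX1 furthest, and CCL5 lies above 0 in NT and siNTC.

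The pathway's other genes were also looked at with siPIEZO1 set against siNTC in vehicle, where 5.07% and 10.8% of all genes were called at 3 h and 9 h. The lists of receptor, signalling and sensing genes are short, and their shares were not tested against those of all genes. Of the interferon ligands and receptors tested, 1 of 8 was called at each time, the interferon gamma receptor subunit IFNGR2 (0.41 at 3 h and 0.51 at 9 h). IFNB1, the gene of interferon beta, was at 1.13, 1.63, 0.381 and 0.127 CPM in siPIEZO1 at 3 h and 0.131, 0, 0.349 and 0.117 CPM in siNTC, too low and too spread to be called (edgeR adjusted p = 0.333). It was called higher in 1 of the 6 comparisons of siPIEZO1 with siNTC, that in Yoda1 at 9 h (edgeR adjusted p = 0.0037). Of the 10 signalling genes tested, 0 were called at 3 h (edgeR; 1 at an unadjusted p under 0.05) and 1 at 9 h, STAT3, lower by -0.29. Of the sensing genes, 0 of 15 (edgeR; 1 at an unadjusted p under 0.05) and 1 of 14 were called, TICAM1 at 9 h (0.95). Of the 12 negative regulators, RNF125 was lower at 3 h (-0.74) and 0 were called at 9 h (edgeR; 5 at an unadjusted p under 0.05). Of 53 further interferon-stimulated genes 11 rose and 0 fell at 3 h, led by TMEM140 (1.68), RTP4 (0.94), TAP2 (0.87), IFI30 and B2M. Of 52 at 9 h 13 rose, led by LGALS9 (2.21), EPSTI1 (1.37), UBE2L6 (1.36), TMEM140 (1.29) and DDX60 (1.21), and NCOA7 fell. Of 14 NF-kB targets, taken for reference, SOD2 was lower at both times and NFKBIA (0.93) and TNFAIP3 (0.45) were higher at 9 h.

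In the 2 other main comparisons of this experiment the further interferon-stimulated genes called were mostly lower. In siNTC against NT at 3 h, where 7.53% of all genes were called in either direction, 15 of 53 were lower. Among them were VCAM1 (-2.32) and SERPING1 (-1.26), and GCH1 was higher (1.01). In NT at 9 h against 3 h, where 16.1% of all genes were called, 21 of 54 were lower and 3 were higher. TRIM22 (-2.29), UBE2L6 (-2.07) and EPSTI1 (-1.99) led the lower ones. The lists were not tested against all genes.

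In most comparisons of compression or Yoda1 with vehicle the share of members called was near or below that of all genes. In NT at 3 h compression raised 3 members and lowered 0 (6.27% of all genes): SAMD9, an antiproliferative and antiviral factor, went from 6.24, 5.74, 6.17 and 11.0 CPM to 12.4, 14.0, 17.8 and 15.5 CPM (1.03 ± 0.24, edgeR adjusted p = 0.00664), TRIM21, an antibody receptor and ubiquitin ligase, from 23.0, 19.0, 23.4 and 24.6 CPM to 32.3, 31.8, 34.9 and 33.0 CPM (0.55 ± 0.13), and IFIT5 rose by 0.48 ± 0.14. The compressed libraries lay above the vehicle libraries in all 3 genes. The count was 2 without library 4 of compressed NT and 5 without library 4 of NT vehicle. In siNTC and siPIEZO1 at 3 h 0 members were called (0.911% and 0.600% of all genes; edgeR, 7 at an unadjusted p under 0.05 in each, DESeq2 2 and 1), and the interaction of compression with siPIEZO1 called 0 (0% of all genes; 7 and 0).

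At 9 h compression called 0 members in NT (3.51% of all genes; edgeR, 8 at an unadjusted p under 0.05, DESeq2 3). In siNTC it raised HERC6 (0.65 ± 0.15) and lowered IFIT5 (-0.44 ± 0.11), against 6.43% of all genes. In siPIEZO1 it raised TRIM25, the ubiquitin ligase of RIG-I, from 5.75, 7.01, 7.06 and 4.77 CPM to 12.7, 14.2, 13.3 and 15.6 CPM (1.18 ± 0.27, edgeR adjusted p = 0.0113) and EIF2AK2 (PKR), the kinase that stops translation on double-stranded RNA, from 44.9, 43.7, 55.3 and 50.2 CPM to 77.3, 73.0, 69.3 and 81.7 CPM (0.63 ± 0.12, edgeR adjusted p = 0.00088), against 2.18% of all genes. The interaction with siPIEZO1 called 0 (1.09%; edgeR, 8 at an unadjusted p under 0.05, DESeq2 2), so neither gene is shown to respond differently from siNTC. The count in siNTC was 7 without library 2 of siNTC vehicle and 1 without library 3 of compressed siNTC, and that in siPIEZO1 was 1 without library 4 of siPIEZO1 vehicle.

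Yoda1 called 0 members in NT at 3 h (0.409% of all genes; edgeR, 4 at an unadjusted p under 0.05, DESeq2 0) and in siPIEZO1 at 3 h (0.262%; 5 and 1). In siNTC at 3 h it raised 6 and lowered 0, 14.0% of the members against 5.40% of all genes: ZBP1, TRIM25, DHX58, OAS1, OAS2 and MX1, by log2 0.33 to 0.92. OAS1 went from 66.6, 65.1, 60.1 and 68.9 CPM to 107, 83.6, 81.0 and 71.2 CPM, with library 1 of the Yoda1 group the highest. Leaving out that library left 0 of them higher and 2 other members lower, and leaving out library 2 left 0 called. The interaction of Yoda1 with siPIEZO1 at 3 h called 2 members (0.938%), OAS1 (-0.70 ± 0.14) and ISG15 (-0.68 ± 0.16), both lower. ISG15 stood at 899, 955, 929 and 918 CPM in siNTC vehicle, 1360, 1093, 1007 and 972 CPM in siNTC with Yoda1, 2149, 1328, 1370 and 1348 CPM in siPIEZO1 vehicle, and 1128, 1152, 1181 and 1185 CPM in siPIEZO1 with Yoda1. Library 1 was the highest in both the siNTC Yoda1 and the siPIEZO1 vehicle group, and without library 1 of siNTC with Yoda1 the call of ISG15 was lost (edgeR adjusted p = 0.0697). At 9 h Yoda1 called 0 members in NT, siNTC and siPIEZO1 and in the interaction (0%, 0%, 2.54% and 0.0269% of all genes; edgeR, 7, 3, 5 and 6 at an unadjusted p under 0.05, DESeq2 0, 0, 2 and 0).

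In the TRPV4 experiment IL-1 raised IRF1, both chemokines and the antigen-processing genes, among others. At 3 h 11 of 42 members tested were higher than in DMSO and 4 lower (32.2% of all 16562 genes called), and at 9 h 18 of 41 were higher and 8 lower (65.1% of 16540 genes); the member median was -0.02 and 0.33, against 0.01 and -0.07 over all genes. The members were called at 35.7% and 63.4%, shares close to those of all genes, so what follows is about which members moved. ISG20, an exonuclease, was not tested at either time and OASL not at 9 h, since their counts were too low.

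IRF1, the transcription factor, rose from 11.7, 13.7, 13.4 and 14.6 CPM in DMSO to 229, 253, 241 and 234 CPM with IL-1 at 3 h, and from 12.6, 13.3, 14.5 and 11.4 CPM to 121, 132, 126 and 132 CPM at 9 h. Its log2 fold change was 4.16 ± 0.07 (17.9-fold, edgeR adjusted p = 9.14e-29) and 3.30 ± 0.09 (9.84-fold, edgeR adjusted p = 7.96e-25), and the decline between the times passed its own test (-0.82 ± 0.12, edgeR adjusted p = 4.93e-08). STAT2 was not called at 3 h (-0.08 ± 0.09) and was lower by -0.25 ± 0.09 at 9 h, a call lost under some alternatives, and IRF7 (0.16 ± 0.13 and 0.24 ± 0.12) and IRF9 (-1.01 ± 0.45 and 0.15 ± 0.73) were not called at either time. IRF1 was thus the 1 transcription factor of 4 called higher.

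Both chemokines rose. CCL5 was at 12.9, 18.3, 12.0 and 17.3 CPM in DMSO and 78.1, 78.7, 84.0 and 72.9 CPM with IL-1 at 3 h, and at 13.0, 13.8, 15.2 and 15.0 CPM against 194, 185, 187 and 188 CPM at 9 h. The log2 fold change was 2.37 ± 0.11 and then 3.73 ± 0.12, and the further rise was called (1.39 ± 0.17, edgeR adjusted p = 1.86e-09). CXCL10, which attracts activated T cells through CXCR3, had 4 counts in the 4 DMSO libraries together at each time, in 1 library, and 7.75, 8.26, 7.33 and 8.24 CPM with IL-1 at 3 h and 8.57, 9.84, 10.0 and 8.07 CPM at 9 h. It was called higher at both times (edgeR adjusted p = 1.95e-09 and 5.50e-15), and the size of its fold change rests on those 4 counts.

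The 3 antigen-processing genes rose at both times. TAP1 went from 18.7, 24.4, 22 and 25.0 CPM to 95.0, 108, 105 and 99.5 CPM at 3 h (2.18 ± 0.09) and to 164, 162, 166 and 163 CPM at 9 h (2.68 ± 0.09, against 20.3 to 28.4 CPM in DMSO). PSMB9 rose from 0.851, 1.83, 0.784 and 0.911 CPM to 3.30, 4.38, 4.17 and 5.03 CPM at 3 h (1.95 ± 0.31) and reached 2.49 ± 0.33 at 9 h, and PSMB8 rose by 0.85 ± 0.23 and 2.01 ± 0.22. In all 3 the IL-1 libraries lay above every DMSO library. PARP14, a mono-ADP-ribosyltransferase, rose from 1.43, 1.91, 2.22 and 1.51 CPM to 7.08, 5.59, 6.10 and 5.16 CPM at 3 h (1.75 ± 0.22), SAMD9 from 5.87, 4.96, 6.07 and 3.86 CPM to 14.8, 12.4, 10.2 and 14.5 CPM (1.32 ± 0.18), and TRIM21 from 6.00, 6.31, 7.06 and 6.53 CPM to 17.3, 19.1, 17.6 and 20.6 CPM (1.52 ± 0.11). At 9 h these 3 stood higher by 1.96 ± 0.20, 2.26 ± 0.13 and 1.90 ± 0.12. The sensor IFIH1 rose by 1.63 ± 0.10 and 1.28 ± 0.09, and HERC6 was called at 9 h only (1.25 ± 0.12), a difference between the times that passed its test (1.03 ± 0.19).

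Several members that were higher with siPIEZO1 were lower or not called with IL-1. RSAD2 was lower with IL-1 at 3 h (10.7, 10.6, 8.32 and 9.65 CPM against 13.8, 20.9, 15.0 and 10.6 CPM in DMSO, -0.62 ± 0.21, a call lost under some alternatives) and not called at 9 h (-0.19 ± 0.16). MX1 (-0.09 ± 0.18 and 0.08 ± 0.16) and IFIT2 (-0.42 ± 0.37 and -0.18 ± 0.32) were not called at either time, nor was OAS1. OAS1 had only 4 to 34 counts per library in these groups (-0.07 ± 0.52 at 9 h), so only a large difference was detectable. ISG15 was not called at 3 h and rose by 0.65 ± 0.17 at 9 h. IFIT1 (0.43 ± 0.15), USP18 (0.58 ± 0.11) and HERC5 (0.40 ± 0.15) also rose with IL-1 at 9 h. They too were higher with siPIEZO1 in vehicle at 9 h, and the IL-1 calls of IFIT1 and HERC5 were lost under some alternatives. ZBP1, a sensor of Z-form nucleic acid that can start necroptosis, fell from 3.63, 4.21, 3.07 and 4.87 CPM to 1.52, 2.58, 2.83 and 1.46 CPM at 3 h (-0.88 ± 0.25) and from 5.60, 4.71, 4.62 and 3.37 CPM to 1.95, 1.54, 1.29 and 2.00 CPM at 9 h (-1.42 ± 0.23). CMPK2, the neighbour of RSAD2 on chromosome 3 (CMPK2 at chr3:128903395-128917873, RSAD2 at chr3:128880853-128897809), fell by -0.85 ± 0.24 at 3 h. TRIM25 and DTX3L, which were not called with siPIEZO1 in vehicle, were lower with IL-1 at 9 h, each by -0.97. The IL-1 and siPIEZO1 results come from different experiments, and their difference was not tested.

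**Figure D5:**
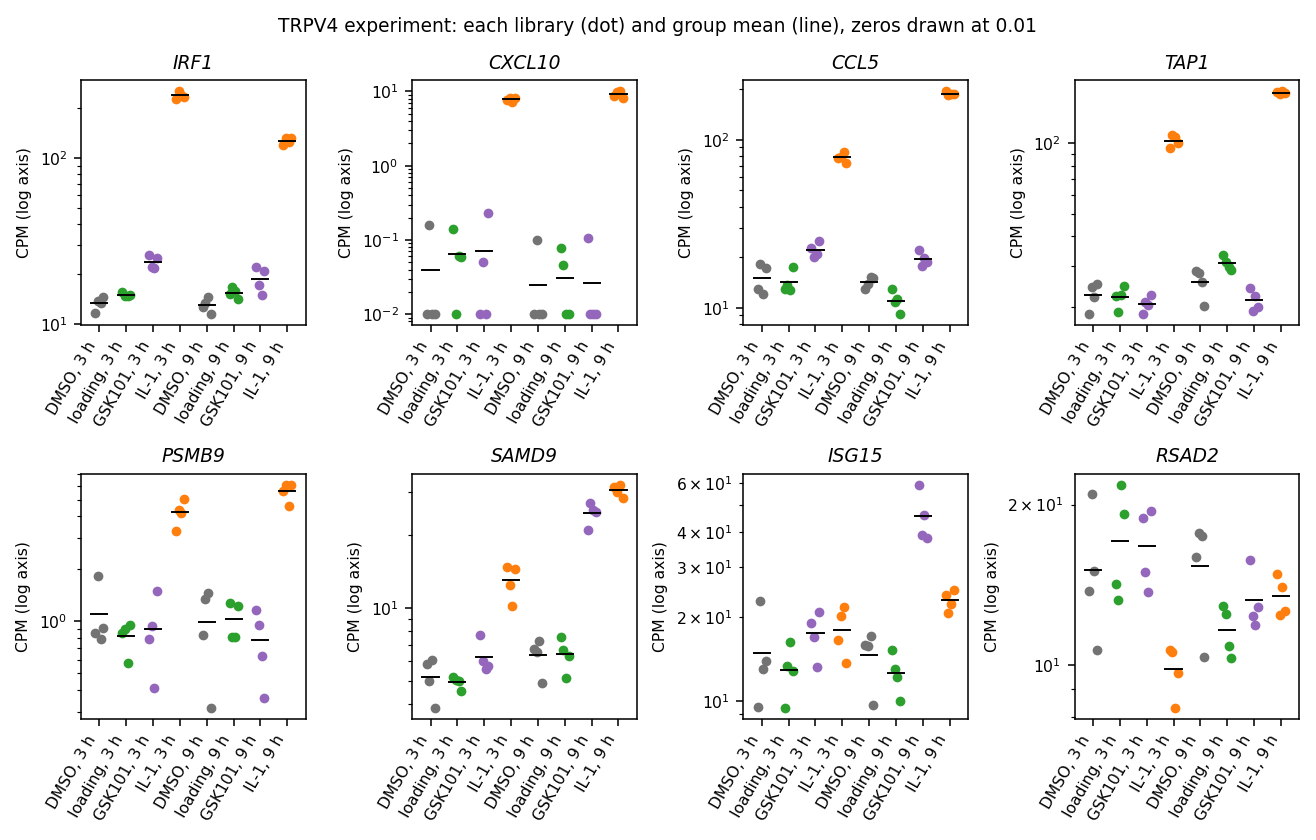
Level (CPM, log axis) of 8 members in the TRPV4 experiment under DMSO, loading, GSK101 and IL-1 at 3 h and 9 h; dots are the 4 libraries of a group, the line is their mean, and values of 0 are drawn at 0.01. IL-1 libraries lie above all others in IRF1, CXCL10, CCL5, TAP1 and PSMB9, ISG15 is highest with GSK101 at 9 h, and RSAD2 is lowest with IL-1 at 3 h.

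The response to IL-1 differed between 9 h and 3 h in 13 members, 10 more positive and 3 more negative at 9 h (38.8% of the 17447 genes tested over both times). Beside those named, PSMB8 (1.19 ± 0.32), SAMD9 (0.98 ± 0.22), IFI35 (0.89 ± 0.22) and TAP1 (0.54 ± 0.13) were more positive and DTX3L (-0.92 ± 0.25) and TRIM25 (-0.70 ± 0.10) more negative. The leukocyte marker sum was 53.8 to 63.5 CPM with IL-1 against 35.7 to 40.6 CPM in DMSO at 3 h and 95.7 to 106 CPM against 34.5 to 42.4 CPM at 9 h; CD14 was called higher (0.94 ± 0.08 and 1.78 ± 0.09) and CD68 lower at each time, CSF1R was lower at 3 h, LYZ was at 0, and the part of this in the result was not tested.

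GSK101 moved members in both directions. At 3 h 3 were higher and 8 lower than in DMSO (40.0% of all genes called), and at 9 h 8 were higher and 10 lower (62.3%). The members were called at 26.2% and 43.9%, shares below those of all genes, so what follows is about which members moved. SAMD9 at 9 h rose from 6.72, 6.56, 7.32 and 4.89 CPM to 21.1, 27.0, 25.4 and 25.0 CPM (1.95 ± 0.13, edgeR adjusted p = 1.06e-14), ISG15 from 15.9, 15.8, 17.0 and 9.66 CPM to 59.0, 39, 46.1 and 38.2 CPM (1.64 ± 0.18), and IFI6 from 37.1, 41.2, 43.7 and 35.3 CPM to 70.8, 82.0, 62.0 and 71.6 CPM (0.87 ± 0.15). The groups did not overlap in these 3 genes at 9 h, and none of the 3 was called at 3 h. That the 9 h response exceeded the 3 h response was called for each of them (1.72 ± 0.23, 1.45 ± 0.30 and 0.90 ± 0.22), among 7 members with a more positive and 4 with a more negative response at 9 h (45.8% of all genes).

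IRF1 rose with GSK101 at both times, from 11.7, 13.7, 13.4 and 14.6 CPM to 26.1, 21.9, 21.7 and 25.1 CPM at 3 h (0.83 ± 0.07) and by 0.53 ± 0.10 at 9 h, and CCL5 rose by 0.55 ± 0.11 and 0.45 ± 0.12. CXCL10 was not called (21 counts in the GSK101 libraries at 3 h and 2 at 9 h). At 3 h IRF7 was called higher and STAT2 lower, both calls lost under some alternatives. IRF7 was not called at 9 h, and IRF9 at neither time. Lower at 9 h were ZBP1 (-1.47 ± 0.24), DTX3L (-1.16 ± 0.18), DHX58 (-0.95 ± 0.27), PARP9, the partner of DTX3L (-0.76 ± 0.22), the guanylate-binding protein GBP2 (-0.74 ± 0.09), EIF2AK2 (-0.65 ± 0.09), ADAR, the editor of double-stranded RNA (-0.58 ± 0.08), and STAT2 (-0.47 ± 0.09). DTX3L and PARP9 overlap on chromosome 13 (chr13:137950266-137961381 and chr13:137960987-138000862), and whether the counting used strand is not given in the sources used here, so their reads may be shared. At 3 h CMPK2 (-0.87 ± 0.23), DHX58 (-0.82 ± 0.24), DTX3L (-0.75 ± 0.18) and TRIM21 (-0.61 ± 0.11) led the 8 lower members. Compared directly with IL-1, GSK101 gave 1 member higher and 15 lower at 3 h (41.5% of all genes) and 4 higher and 18 lower at 9 h (53.8%). In this comparison the members were called at 38.1% and 53.7%, close to the shares of all genes. The members higher with GSK101 at 9 h were ISG15 (0.99 ± 0.17), TRIM25 (0.83 ± 0.07), IFIT5 (0.58 ± 0.08) and IFI6 (0.55 ± 0.15), and at 3 h RSAD2 (0.78 ± 0.20).

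Cyclic loading and the antagonist each called a smaller share of the members than of all genes. GSK205 alone called 19.0% of the members at 3 h and 14.6% at 9 h, and loading called 9.76% at 9 h. Loading called 0 members at 3 h (10.2% of all genes; edgeR, 4 at an unadjusted p under 0.05, DESeq2 1). At 9 h it called 2 higher, TAP1 (0.27 ± 0.09) and IRF1 (0.25 ± 0.09), and 2 lower, CCL5 (-0.36 ± 0.12) and EIF2AK2 (-0.30 ± 0.09), against 23.7% of all genes. The count fell to 1 without library 2 of loading at 9 h, and 0 of the 4 calls held under every alternative. GSK205 alone called 1 higher and 7 lower at 3 h (27.1%), among them IRF7, from 8.29, 9.73, 8.66 and 11.4 CPM to 4.32, 4.32, 5.96 and 6.10 CPM (-0.88 ± 0.13, edgeR adjusted p = 1.13e-05), DHX58 (-0.96 ± 0.25) and ADAR (-0.28 ± 0.06). At 9 h GSK205 called 3 higher and 3 lower (21.2%), with IRF1 (0.53 ± 0.09) and TAP1 (0.43 ± 0.09) higher. The count ranged from 2 without library 1 of DMSO to 10 without library 1 of GSK205. Adding GSK205 to loading called 3 higher and 2 lower at 3 h (15.3%), IFIH1 (0.49 ± 0.10) and GBP2 (0.35 ± 0.08) among the higher, with 3 in all without library 4 of loading with GSK205. At 9 h it called 0 (4.10%; edgeR, 5 at an unadjusted p under 0.05, DESeq2 0). The interaction of loading and GSK205 called 0 at 3 h (2.25%; 9 and 0) and 1 at 9 h (4.64%), IRF1 (-0.55 ± 0.13, edgeR adjusted p = 0.011): IRF1 stood at 11.4 to 14.5 CPM in DMSO, 14.1 to 16.7 CPM with loading, 16.0 to 21.2 CPM with GSK205 and 14.5 to 16.6 CPM with both.

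Among the other genes of the pathway, where 65.1% of all genes were called with IL-1 and 62.3% with GSK101 at 9 h, IL-1 at 9 h raised 6 of 7 interferon ligand and receptor genes tested and lowered IFNE, with IL10RB (3.77), IFNLR1 (3.72) and IFNAR2 (3.67) leading; IFNAR2 went from 26.1, 25.2, 23.3 and 23.4 CPM to 303, 313, 321 and 312 CPM. It raised 9 of 10 signalling genes, led by IRF8 (2.81), STAT3 (2.50) and IRF5 (2.44). Of 14 sensing genes 6 rose, led by IKBKE (2.76), and STING1 (-1.16) and MAVS (-0.47) fell. Of 12 negative regulators 8 rose, led by SOCS1 (3.55) and SOCS3 (3.29), which shut off JAK signalling, and 2 fell. Of 53 further interferon-stimulated genes 30 rose and 8 fell, and all 14 NF-kB targets tested rose, IL6 by 10.07. IFNB1 was listed at 0 in all 8 IL-1 libraries. GSK101 at 9 h raised 6 of the 7 ligand and receptor genes and lowered 0, raised 5 and lowered 4 of the 10 signalling genes, raised SOCS3 by 3.11 and SOCS1 by 1.73, and raised 21 and lowered 9 of the 53 further interferon-stimulated genes, led by GCH1 (3.19) and TRAFD1 (2.78).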

How the data were processed

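RNA was measured by sequencing in 120 libraries. Per the submitters' processing notes the tools were Trim Galore, STAR and HTSeq with Sscrofa11.1; the authors deposited 1 table of whole-number read counts per gene, with no normalization. TRPV4 libraries were made from ribosome-depleted RNA with random hexamers and PIEZO1 libraries from 10 ng of RNA with the SMARTer Ultra Low kit, per the labels' protocols. Of 32388 lines, 481 repeated an identifier with the same counts and were dropped, which left 31907 identifiers.

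Each experiment and time was fitted apart with edgeR 4.0.16 in R 4.3.3 (TMM scaling, filterByExpr with a minimum count of 10, quasi-likelihood test, 1 term per group), and comparisons of 9 h with 3 h in a fit of both times. P-values were adjusted by Benjamini-Hochberg over all genes tested, and a call is an adjusted p under 0.05. The SE is the size of the log2 fold change divided by the square root of F. The filter kept all 43 members for PIEZO1, and for TRPV4 42 at 3 h and 41 at 9 h. The edgeR steps were run on simulated counts for siPIEZO1 against siNTC in vehicle at 3 h only. The simulated spread between libraries was smaller than the fitted one, so error rates at the fitted spread were not tested.

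Alternatives were RLE scaling, no filter, DESeq2 1.42.0, a fit of the compared groups alone, a replicate block and leaving out each library. Genes were named by rule: up to 8 called members with the largest change in each direction of a main comparison. STAT2, IRF1, IRF7, IRF9, CXCL10 and CCL5 were followed in any case but are not named in every comparison. Other members named in smaller counts were chosen after their values were seen. The members and the pathway and marker lists were chosen with earlier results of these data known. Promoter sequences were not used here. The replicate numbers did not pair the samples. Without a reagent-only group in the samples used here, the reagent and the siRNA cannot be told apart in comparisons with NT.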

Additional observations from a re-analysis of the deposited data

Results flagged for a closer look

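Values were looked at again where 1 library lay far from the other 3 of its group (its gap to the nearest other, as a share of the group's range, above Dixon's critical value). Of 138 values tested this way 18 were picked out, and chance picks out about 1 in 20 groups.

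In siPIEZO1 vehicle at 3 h library 1 was apart in the mean log2 level over the members (4.70), in CCL5 (546 CPM), in ISG15 (2149 CPM) and, on the low side, in RSAD2 (91.1 CPM). In siPIEZO1 vehicle at 9 h single libraries were apart in RSAD2 (96.4 CPM) and IFI6 (1027 CPM). The mean over the members was apart in 1 library of siNTC vehicle at 3 h (4.05), siNTC with Yoda1 at 3 h (4.57) and NT with Yoda1 at 9 h (3.60). In NT vehicle single libraries were apart in RSAD2 (34.5 CPM) and IRF7 (14.4 CPM) at 3 h and in RSAD2 (13.0 CPM) and OAS1 (9.86 CPM) at 9 h, and in siNTC vehicle at 9 h in OAS1 (8.28 CPM). In DMSO at 3 h PSMB9 (1.83 CPM) and CXCL10 (0.159 CPM) were apart, as was CXCL10 in DMSO (0.0997 CPM) and GSK101 (0.106 CPM) at 9 h, where the other 3 libraries held no count.

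A response differed between groups by its own test in 5 comparisons. The response to IL-1 differed between 9 h and 3 h in 13 members, 31.0% of those tested against 38.8% of all genes. That to GSK101 differed in 11, 26.2% against 45.8%, so both shares lay below those of all genes. The difference between siPIEZO1 and siNTC differed between the times in 1 member, MX1 (0.0149% of all genes). The effect of Yoda1 differed between siPIEZO1 and siNTC at 3 h in 2 members, OAS1 and ISG15 (0.938% of all genes). The effect of loading differed with GSK205 at 9 h in 1 member, IRF1, 2.44% of the members against 4.64% of all genes.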

How the results depend on the processing

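Of 474 single values of called members, 468 kept their call with RLE scaling, 451 with no filter, 469 with the replicate block, 464 with DESeq2, 421 in a fit of the compared groups alone and 348 with every library left out in turn; the rest were no longer called, and none of these values changed direction. The replicate numbers did not pair the libraries: same-number correlations of deviations ran from -0.0682 to 0.112 in the PIEZO1 and from -0.132 to 0.101 in the TRPV4 experiment. The cause of the changes below was not tested.

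The number of members called changed by more than 1.5 times as follows. With DESeq2 it was 1 for loading at 3 h (main value 0), 2 for the interaction of loading and GSK205 at 9 h (1), 5 for compression in NT at 3 h (3), 2 in siNTC (0) and 1 in siPIEZO1 (0), 1 for Yoda1 in siPIEZO1 at 3 h (0), 5 for the interaction of Yoda1 and siPIEZO1 at 3 h (2), and at 9 h 3 for compression in NT (0), 7 in siNTC (2), 2 for its interaction with siPIEZO1 (0) and 2 for Yoda1 in siPIEZO1 (0). In the fit of the compared groups alone it was 12 for siPIEZO1 against siNTC at 3 h (20), 1 for loading at 3 h (0) and 7 at 9 h (4), 3 for GSK205 at 9 h (6), 1 for GSK205 added to loading at 9 h (0), 7 for compression in NT at 3 h (3) and 2 at 9 h (0), 4 for compression in siNTC at 3 h (0), 0 for Yoda1 in siNTC (6) and for its interaction with siPIEZO1 (2) at 3 h, 3 for the change of siNTC against NT with time (0) and 8 for siNTC against NT in Yoda1 at 3 h (13). With no filter it was 1 for the interaction of loading and GSK205 at 3 h (0) and 3 at 9 h (1), 8 for loading at 9 h (4) and 1 for compression in NT at 9 h (0). With the replicate block it was 2 for the interaction of loading and GSK205 at 9 h (1), 2 for compression in NT at 9 h (0) and 1 for Yoda1 in siPIEZO1 at 9 h (0).

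Leaving out 1 library gave 3 to 5 members for GSK205 added to loading at 3 h, 1 to 4 for loading at 9 h, 2 to 10 for GSK205 at 9 h, 1 to 2 for the interaction of loading and GSK205 at 9 h, and 3 to 5 for DMSO at 9 h against 3 h. For compression it gave 2 to 5 in NT at 3 h, 0 to 1 in siPIEZO1 at 3 h, 0 to 2 in NT at 9 h, 1 to 7 in siNTC at 9 h, 1 to 2 in siPIEZO1 at 9 h and 0 to 1 for the interaction at 9 h. For Yoda1 it gave 0 to 7 in siNTC and 1 to 4 for the interaction at 3 h, and 0 to 1 in siPIEZO1 at 9 h. For siNTC against NT it gave 3 to 5 in vehicle at 9 h, 8 to 19 in Yoda1 at 3 h and 1 to 4 in Yoda1 at 9 h, and for the change of siPIEZO1 against siNTC with time 1 to 2. For siPIEZO1 against siNTC in vehicle it gave 15 to 23 at 3 h and 22 to 27 at 9 h. RLE scaling moved the share of higher calls over all genes by more than 10 points in 1 comparison, the interaction of loading and GSK205 at 3 h (39.8% to 54.5%). CXCL10, IRF9, ISG20 and, in the TRPV4 experiment, OASL, OAS1 and DDX58 had few counts. Differences in them were therefore not detectable at this depth unless large.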
